A study of Mus musculus with 6 samples.

Results

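The genes described here are the tumour suppressor p53 (Trp53), its inhibitors Mdm2 and Mdm4, and 6 genes that p53 is known to activate, namely Ccng1, Eda2r, Zmat3, Phlda3, Sesn2 and Trp53inp1. They were taken by symbol from the gene count table, where each of the 9 symbols had 1 identifier among 26027 genes. RNA was sequenced from 6 libraries of mouse bone marrow progenitors sorted as lineage-negative, cKit-positive and eYFP-positive. In 3 libraries the cells carried the Srsf2 P95H/+ mutation, in which 1 copy of the splicing factor gene Srsf2 has a proline-to-histidine change found in myeloid cancers, and in 3 libraries they were Srsf2 +/+, called wild type below. Both genotypes shared the C57BL/6 background, treatment with tamoxifen, the tamoxifen-activated Cre hScl-CreERT, driven by an enhancer of the blood stem cell gene Scl, and the R26eYFP reporter. The reporter marks cells in which Cre has acted, so the sort covers those cells alone. Mutant replicates 1 and 2 came from females and replicate 3 from a male, all at 32 weeks. Wild-type replicate 1 came from a female at 54 weeks, and replicates 2 and 3 came from males at 32 weeks. The labels do not say whether the replicates were separate animals, so the p-values measure the spread between libraries.

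The p53 protein is a transcription factor that is kept scarce in unstressed cells. Mdm2 tags it for destruction and Mdm4 blocks its activity, while p53 in turn activates Mdm2, which closes a negative feedback loop. When damage or other stress stabilises p53, it switches on genes for cell cycle arrest, cell death, repair and metabolism, and in blood progenitors it helps to set quiescence and the response to DNA damage. Control of p53 acts largely on the protein, so the RNA level of Trp53 does not measure its activity.

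The libraries held 21673761, 22614408 and 10747941 counts in mutant replicates 1, 2 and 3, against 23010510, 21104066 and 16842751 counts in wild-type replicates 1, 2 and 3. Both libraries numbered 3 stood apart by base composition. For genes with a GC content of at most 40%, the median log2 deviation from the mean of the 4 libraries numbered 1 and 2 was -1.19 in mutant replicate 3 and -0.937 in wild-type replicate 3. In the other 4 libraries it was between -0.0741 and 0.0754. Fold changes are therefore given over all 6 libraries and over the 4 libraries numbered 1 and 2. The 4-library comparison sets 2 female mutant libraries against a female and a male wild-type library, so sex and age are not balanced in it. All 13 progenitor markers were detected at 1 CPM (the gene's count scaled to a library total common to all libraries) or more in every library, with summed levels of 2660 to 3020 CPM in mutant and 2690 to 3130 CPM in wild-type libraries. The 10 markers of mature blood lineages summed to 41.1 to 63.1 CPM in mutant and 42.6 to 70.7 CPM in wild-type libraries.

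A p53 binding site is a pair of decamers of 1 degenerate pattern, which reads the same on both strands. A single decamer, which is only part of a full site, was searched in the RefSeq promoters of the GRCm38.p6 build, from 250 bases before to 50 bases after each gene's start. The tables held promoters for 7 of the 9 genes, and Zmat3 and Trp53inp1 had no entry. The decamer was found in the promoters of Trp53, Mdm2 and Ccng1, and 8.36% of all 32851 mouse promoters hold it. These 3 are shown because they hold the decamer in the factor itself, its inhibitor and a target. Each line gives the 250 bases before the start, 5′ to 3′ on the gene's own strand, with the decamer in capitals. Trp53 lies on the plus strand at chr11:69580109-69580358, with the decamer beginning 75 bases before the start (position -75). Mdm2 lies on the minus strand at chr10:117710759-117711008, with the decamer at -186. Ccng1 lies on the minus strand at chr11:40755287-40755536, with the decamer at -185.
Trp53: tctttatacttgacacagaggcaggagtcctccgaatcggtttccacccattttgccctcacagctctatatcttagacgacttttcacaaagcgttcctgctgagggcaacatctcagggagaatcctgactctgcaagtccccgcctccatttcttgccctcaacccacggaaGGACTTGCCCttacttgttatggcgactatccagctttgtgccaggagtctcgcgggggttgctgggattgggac
Mdm2: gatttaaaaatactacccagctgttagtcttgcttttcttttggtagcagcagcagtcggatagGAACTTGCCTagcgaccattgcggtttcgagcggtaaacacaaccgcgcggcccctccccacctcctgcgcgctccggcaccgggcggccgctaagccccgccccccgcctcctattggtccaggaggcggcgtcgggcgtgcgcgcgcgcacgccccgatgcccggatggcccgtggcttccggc
Ccng1: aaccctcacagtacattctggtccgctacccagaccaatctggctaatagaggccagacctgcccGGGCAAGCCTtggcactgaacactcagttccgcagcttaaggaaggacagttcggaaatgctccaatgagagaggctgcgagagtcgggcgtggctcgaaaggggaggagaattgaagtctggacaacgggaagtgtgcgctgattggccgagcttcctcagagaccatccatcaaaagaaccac
No decamer was found in the promoters of Mdm4, Eda2r, Phlda3 and Sesn2, which says only that these letters are not in the windows searched.

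Across the 9 genes, no difference between genotypes passed the test over all 6 libraries or over the 4 libraries without replicate 3. The low-expressed receptor gene Eda2r was the only one whose mutant libraries all lay on 1 side of the wild-type libraries, as 7.84% of all genes tested did. Without replicate 3, Eda2r, Zmat3, Ccng1 and Trp53 had higher values in both mutant libraries, and Mdm2, Mdm4 and Sesn2 had lower values, in a comparison where 48.1% of all genes tested were split in this way. The p53 target Cdkn1a, a cell cycle inhibitor outside these 9 genes, was called lower over the 4 libraries, as were 0.645% of all genes. It was not called over all 6 libraries. In bulk RNA such differences cannot be told apart from a shift in the kinds of cells present, since fewer cells of a type and less RNA per cell give the same change.

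Trp53 (ENSMUSG00000059552, mm10 chromosome 11, 69580359 to 69591873, plus strand) was measured at 213, 206 and 363 CPM in mutant replicates 1, 2 and 3, against 187, 198 and 218 CPM in wild-type replicates 1, 2 and 3. Mutant replicate 3 was far above every other library, while mutant replicates 1 and 2 lay within the wild-type range. The mean was 261 ± 88.5 CPM in mutant and 201 ± 15.8 CPM in wild-type libraries (SD, n = 3 each). In edgeR's test the log2 fold change of mutant over wild type was 0.46 (SE 0.28, adjusted p = 1) over all 6 libraries, and 0.12 when mutant replicate 3 alone was left out. It was 0.16 (SE 0.08) over the 4 libraries without replicate 3, with an edgeR adjusted p = 0.401.

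**Figure D1:**
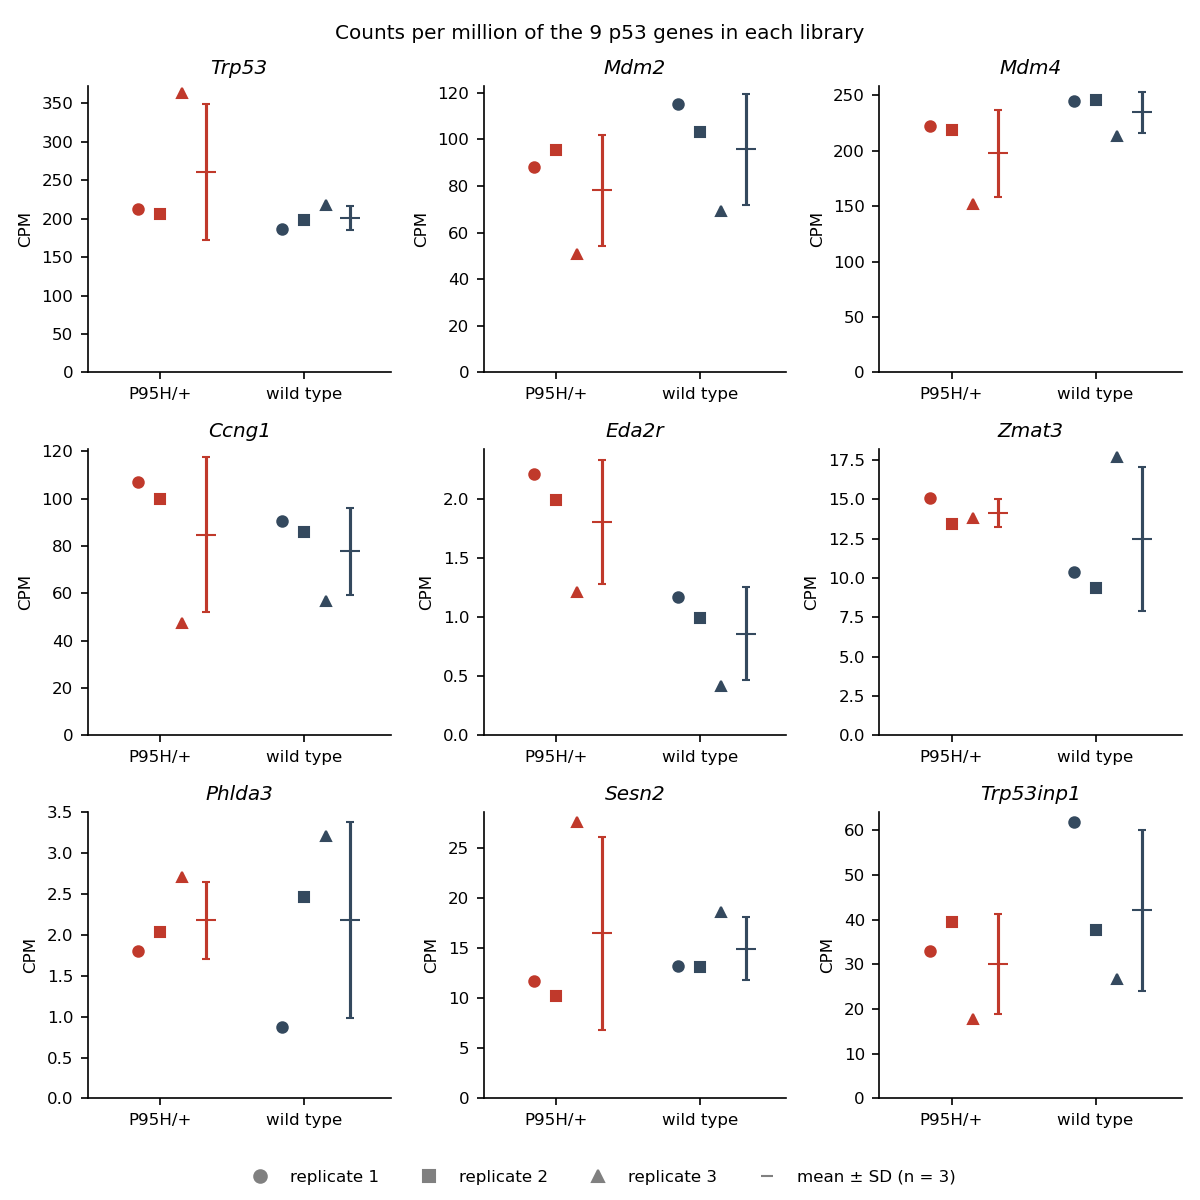
Level of each of the 9 genes in CPM for the 6 libraries, with 1 panel a gene and P95H/+ left of wild type. Each point is 1 library, its shape gives the replicate, and bars give the mean ± SD (n = 3). Eda2r alone has every mutant library above every wild-type library, from 1.21 to 2.21 CPM against 0.416 to 1.17 CPM.

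The inhibitors of p53 had lower means in mutant libraries, and neither difference passed the test. Mdm2 (ENSMUSG00000020184, chromosome 10, 117688875 to 117710758, minus strand), the ubiquitin ligase that marks p53 for degradation, was measured at 88.3, 95.3 and 50.9 CPM in mutant replicates 1, 2 and 3, against 115, 103 and 69.1 CPM in wild-type replicates. The groups overlapped, and replicate 3 was the lowest library of each genotype. Mdm2 had a log2 fold change of -0.23 (SE 0.30) over 6 libraries and -0.22 (SE 0.09) over 4 libraries, with edgeR adjusted p = 1 and 0.263. Over 6 libraries it was -0.01 without mutant replicate 3 and -0.42 without wild-type replicate 3. Mdm4 (ENSMUSG00000054387, chromosome 1, 132959484 to 133030561, minus strand), the relative of Mdm2 that binds p53 and masks its activation domain, was measured at 222, 219 and 152 CPM in mutant replicates, against 245, 246 and 213 CPM in wild-type replicates. Mutant replicates 1 and 2 were above wild-type replicate 3 and below wild-type replicates 1 and 2. Its log2 fold change was -0.18 (SE 0.21) over 6 libraries and -0.12 (SE 0.08) over 4 libraries, with edgeR adjusted p = 1 and 0.492, and ranged from -0.28 to -0.04 over 6 libraries when single libraries were left out.

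Within each library, the count of Mdm2 divided by that of Trp53 was 0.414, 0.462 and 0.14 in mutant replicates 1, 2 and 3, against 0.616, 0.522 and 0.317 in wild-type replicates. Mutant replicates 1 and 2 were below wild-type replicates 1 and 2 and above wild-type replicate 3, so the groups overlapped, while each mutant library was below the wild-type library of its number. The mean log2 difference was -0.64 over 6 libraries, -0.37 over replicates 1 and 2 and -1.17 in replicate 3, with an exact two-sided permutation p = 0.4 (0.6 adjusted over 3 ratios). The ratio of Mdm4 to Trp53 was 1.04, 1.06 and 0.42 in mutant replicates and 1.31, 1.24 and 0.976 in wild-type replicates, again lower in the mutant in each of the 3 numbers. Its log2 difference was -0.59 over 6 libraries, -0.28 over replicates 1 and 2 and -1.22 in replicate 3, with an exact permutation p = 0.3 (0.6 adjusted). The ratio of Mdm2 to Mdm4 was 0.398, 0.434 and 0.334 in mutant and 0.471, 0.42 and 0.324 in wild-type replicates, with a log2 difference of -0.05 over 6 libraries and -0.10 over replicates 1 and 2 (exact permutation p = 0.8, adjusted 0.8). These tests compare the genotypes without pairing by number, and with 3 libraries a genotype the smallest p they allow is 0.1. The numbers come from the labels and are not known to mark pairs, since number 1 differs in age and number 2 in sex. The GC trends of Trp53, Mdm2 and Mdm4 in the libraries numbered 3 are given below, and their part in these ratios was not tested.

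Ccng1 and Zmat3 are targets that act back on p53 or beside it. Ccng1 (ENSMUSG00000020326, chromosome 11, 40748552 to 40755311, minus strand) encodes cyclin G1, which recruits a phosphatase to Mdm2. It was measured at 107, 100 and 47.3 CPM in mutant replicates 1, 2 and 3, against 90.7, 85.7 and 56.8 CPM in wild-type replicates. Replicate 3 was the lowest of each genotype and the order of the genotypes turned round in it, since mutant replicates 1 and 2 were the 2 highest libraries and mutant replicate 3 the lowest of all. Its log2 fold change was 0.19 (SE 0.34) over 6 libraries and 0.27 (SE 0.09) over 4 libraries, with edgeR adjusted p = 1 and 0.187.

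Zmat3 (ENSMUSG00000027663, chromosome 3, 32334792 to 32366014, minus strand) encodes an RNA-binding zinc finger protein that takes part in tumour suppression by p53 in mice. It was measured at 15.1, 13.4 and 13.8 CPM in mutant replicates 1, 2 and 3, against 10.4, 9.33 and 17.7 CPM in wild-type replicates. The mutant libraries lay close together, above wild-type replicates 1 and 2 and below wild-type replicate 3. Its log2 fold change was 0.26 (SE 0.29, edgeR adjusted p = 1) over 6 libraries, and from 0.10 to 0.58 when single libraries were left out (0.58 without wild-type replicate 3). Over the 4 libraries without replicate 3 it was 0.56 (SE 0.15), a fold of 1.48, with an edgeR adjusted p = 0.125.

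Eda2r and Phlda3 are targets linked to cell death and survival signalling, and both were near the lower limit of detection. Eda2r (ENSMUSG00000034457, chromosome X, 97333840 to 97377216, minus strand), a receptor of the tumour necrosis factor family for a form of ectodysplasin A, had 48, 45 and 13 counts in mutant replicates 1, 2 and 3, against 27, 21 and 7 counts in wild-type replicates. This corresponds to 2.21, 1.99 and 1.21 CPM in mutant replicates, against 1.17, 0.995 and 0.416 CPM in wild-type replicates. The groups did not overlap, but the lowest mutant library lay just above the highest wild-type library. Their exact Poisson 95% intervals, which cover counting error only, were 0.644 to 2.07 CPM in mutant replicate 3 and 0.773 to 1.71 CPM in wild-type replicate 1. Over 6 libraries Eda2r had a log2 fold change of 1.13 (SE 0.42), a fold of 2.19, with an edgeR adjusted p = 1. It was the 1 gene of the 9 with an unadjusted p under 0.05 in that comparison. Over 4 libraries it was 0.98 (SE 0.29), a fold of 1.97, with an edgeR adjusted p = 0.149.

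Phlda3 (ENSMUSG00000041801, chromosome 1, 135766119 to 135769136, plus strand), whose pleckstrin homology protein restrains Akt at the membrane, had 39, 46 and 29 counts in mutant replicates, against 20, 52 and 54 counts in wild-type replicates. It was at 1.80, 2.03 and 2.70 CPM in mutant replicates 1, 2 and 3, against 0.869, 2.46 and 3.21 CPM in wild-type replicates. The wild-type libraries spanned the whole mutant range, and the means were the same at 2.18 ± 0.466 CPM in mutant and 2.18 ± 1.19 CPM in wild-type libraries (SD, n = 3 each). Phlda3 had a log2 fold change of 0.07 (SE 0.47) over 6 libraries and 0.24 (SE 0.46) over 4 libraries, with edgeR adjusted p = 1 and 0.846.

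Sesn2 and Trp53inp1 are targets tied to stress and metabolism. Sesn2 (ENSMUSG00000028893, chromosome 4, 132492032 to 132510501, minus strand) encodes sestrin 2, a leucine sensor that restrains the growth kinase complex mTORC1. It was measured at 11.7, 10.2 and 27.6 CPM in mutant replicates 1, 2 and 3, against 13.2, 13.1 and 18.6 CPM in wild-type replicates. Mutant libraries held both the lowest values and the highest. Sesn2 had a log2 fold change of 0.23 (SE 0.42) over 6 libraries and of -0.23 (SE 0.15) over the 4 libraries without replicate 3, with edgeR adjusted p = 1 and 0.506.

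Trp53inp1 (ENSMUSG00000028211, chromosome 4, 11156431 to 11174379, plus strand) encodes a nuclear protein that promotes p53 activity and autophagy. It was measured at 32.9, 39.5 and 17.7 CPM in mutant replicates 1, 2 and 3, against 61.9, 37.7 and 26.7 CPM in wild-type replicates. Wild-type replicate 1, from the 54-week female, was the highest, and the other values of the genotypes were intermixed. Trp53inp1 had a log2 fold change of -0.42 (SE 0.39) over 6 libraries and -0.43 (SE 0.26) over 4 libraries, with edgeR adjusted p = 1 and 0.536. It passed the test in 1 alternative, at -0.73 (edgeR adjusted p = 0.000343), where wild-type replicate 2 was also left out and wild-type replicate 1 alone stood for its genotype. Without wild-type replicate 1 instead, the log2 fold change was -0.04.

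Over all 6 libraries, edgeR called 0 of 17144 genes at an adjusted p under 0.05, which is 0.0% of those tested, and 361 genes (2.11%) had an unadjusted p under 0.05. DESeq2 called 8 genes (0.0467%), limma-voom 0, and edgeR with a replicate block 1, with none of the 9 genes among them. Of the 9 genes, 6 had a positive and 3 a negative log2 fold change, with a median of 0.19 beside 0.02 over all genes tested. This median moved when 1 library numbered 3 was left out, to -0.01 without mutant replicate 3 and 0.40 without wild-type replicate 3. Without both of these libraries it was 0.16. Eda2r was the 1 gene of the 9 whose groups did not overlap, where 7.84% of all genes tested had groups that did not overlap, 1.91% higher and 5.93% lower in the mutant. Over the 4 libraries without replicate 3, edgeR called 144 of 17371 genes (0.829%), and none of the 9. Here 7 of the 9 had groups that did not overlap, 4 higher and 3 lower in the mutant, where 48.1% of all genes tested did so, 19.9% higher and 28.2% lower. An unadjusted p under 0.05 was reached by 4 of the 9 genes (Mdm2, Ccng1, Eda2r and Zmat3) and by 15.6% of all genes. There were 5 positive log2 fold changes among the 9, with a median of 0.16 beside 0.0 over all genes.

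**Figure D2:**
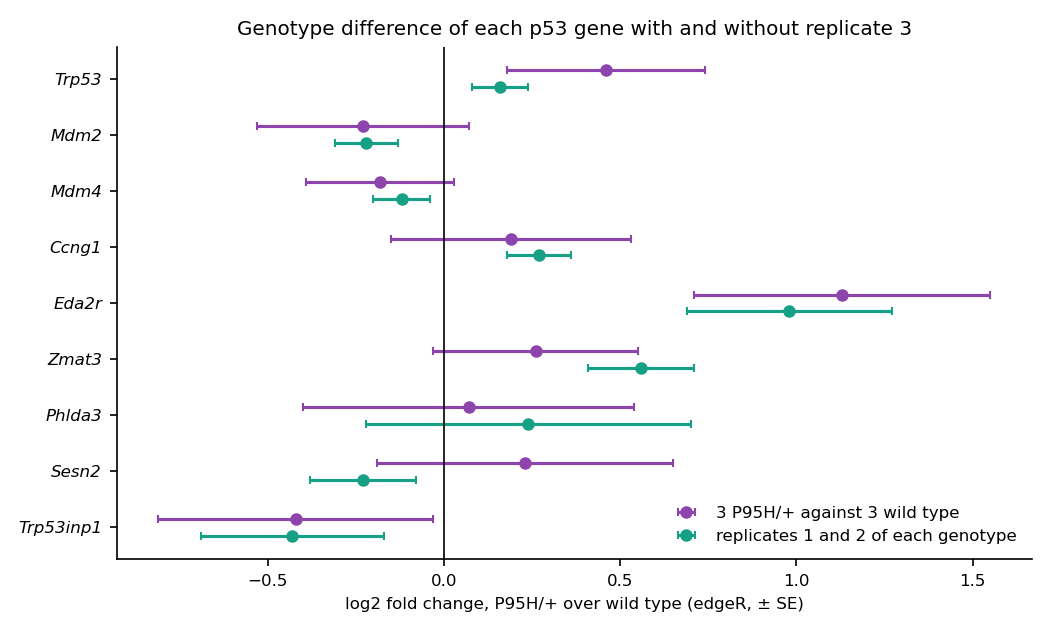
Log2 fold change, mutant over wild type, of the 9 genes from edgeR over all 6 libraries and over the 4 libraries numbered 1 and 2, with bars of 1 SE. Eda2r is farthest from 0 in both, at 1.13 and 0.98, and Sesn2 lies at 0.23 over 6 libraries and at -0.23 over 4.

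Some of these values moved with base composition in the libraries numbered 3. In mutant replicate 3, Sesn2 (GC content 58.7%) stood at 1.40 log2 units above the mean of mutant replicates 1 and 2, where genes of like GC content stood at 0.79. In the same library Ccng1 (39.5% GC) was at -1.07 beside -1.03 for genes of like GC content, and Trp53inp1 (39.4%) was at -0.96 beside -1.04. Ccng1 and Trp53inp1 thus lay near the trend, and Sesn2 lay beyond it in the same direction. In wild-type replicate 3, Sesn2 was at 0.47 beside a trend of 0.42. Zmat3 (47.8% GC) went against the trend, at 0.80 in wild-type replicate 3 where its trend was -0.23. Eda2r (42.5% GC) was at -0.68 beside -0.78 in mutant replicate 3 (13 counts), and at -1.22 beside -0.67 in wild-type replicate 3 (7 counts). Phlda3 (60.2% GC) was at 0.54 beside 0.88 in mutant replicate 3, and at 1.03 beside 0.46 in wild-type replicate 3. Trp53 (54.0% GC) was at 0.86 in mutant replicate 3, where its GC trend was 0.39, and at 0.15 in wild-type replicate 3, where the trend was 0.21. Mdm2 (47.2% GC) was at -0.78 in mutant replicate 3 beside a trend of -0.34, and at -0.69 in wild-type replicate 3 beside -0.29. Mdm4 (43.9% GC) was at -0.47 beside -0.66 in the mutant and at -0.24 beside -0.57 in the wild type. The trend in replicate 3 was thus upward for Trp53 and downward for Mdm2 and Mdm4 in both genotypes. With a GC term in the edgeR model the log2 fold change over 6 libraries was 0.41 for Trp53, 1.20 for Eda2r, 0.22 for Ccng1 and 0.08 for Sesn2, each with an adjusted p of 1. Mutant replicate 3 also had the fewest counts, and the part of depth in these values was not tested.

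**Figure D3:**
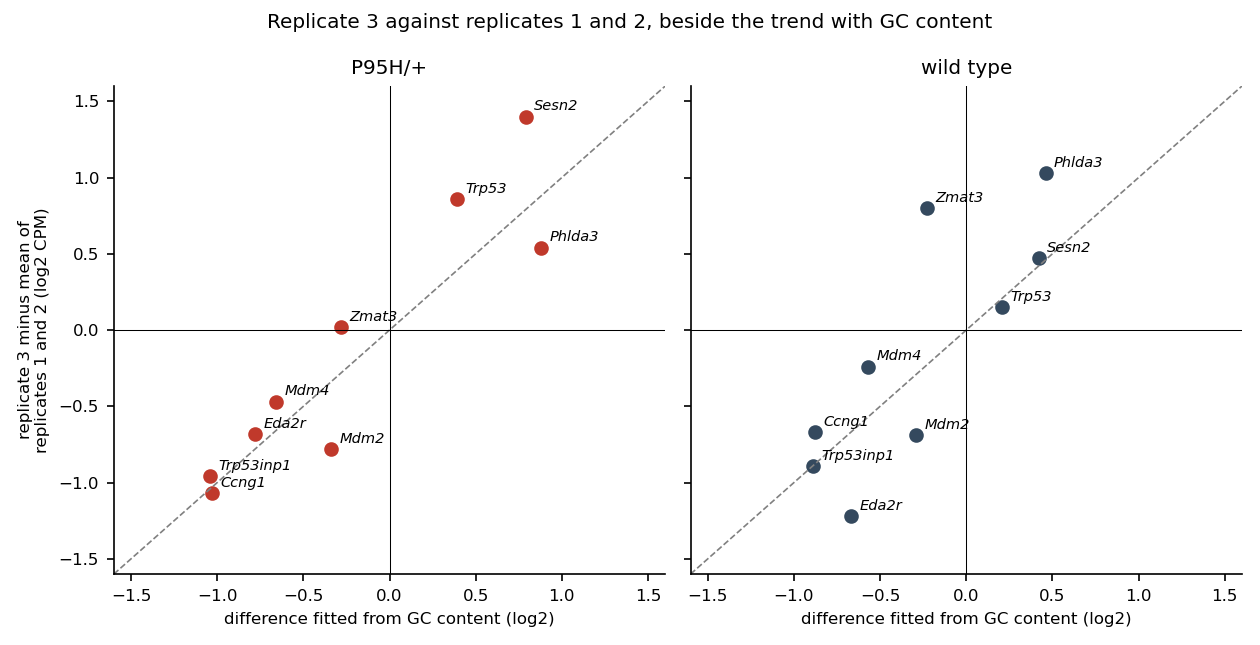
Difference of replicate 3 from the mean of replicates 1 and 2, in log2 units of CPM, against the difference that a curve fitted over all tested genes gives for the GC content of that gene, for P95H/+ (left) and wild type (right). Points are the 9 genes and the dashed line marks equal values, and Trp53 in P95H/+ lies above it, at 0.86 where the trend is 0.39.

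Levels were divided by the joined length of all annotated exons of a gene, which was 14.8 kilobases for Mdm4 and 11.4 for Zmat3. The length of the transcripts present was not measured. Per kilobase of these exons, Trp53 was the most abundant of the 9 RNAs, at 64.5 ± 21.9 CPM per kilobase in mutant and 49.7 ± 3.9 CPM per kilobase in wild-type libraries (SD, n = 3 each). Ccng1 came next at 24.2 ± 9.37 in mutant and 22.1 ± 5.21 in wild-type libraries, followed by Mdm2 at 15.4 ± 4.7 CPM per kilobase in mutant and 18.9 ± 4.71 in wild-type libraries. Mdm4 averaged 13.4 ± 2.66 in mutant and 15.8 ± 1.27 CPM per kilobase in wild-type libraries. The ranges over libraries of Ccng1 and Mdm2 overlapped, in the wild type at 16.2 to 25.8 and 13.6 to 22.7 CPM per kilobase, as did those of Mdm2 and Mdm4. The ranges of Trp53 and Ccng1 did not overlap in either genotype. Sesn2 averaged 4.75 ± 2.78 in mutant and 4.31 ± 0.917 in wild-type libraries, and Trp53inp1 4.64 ± 1.73 in mutant and 6.5 ± 2.78 CPM per kilobase in wild-type libraries, which did not separate them. Phlda3 and Zmat3 followed at 1.4 ± 0.299 and 1.23 ± 0.0799 in mutant and 1.4 ± 0.766 and 1.09 ± 0.398 CPM per kilobase in wild-type libraries. Eda2r was the lowest at 0.306 ± 0.0895 in mutant and 0.146 ± 0.0673 CPM per kilobase in wild-type libraries.

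The pattern of Trp53 over the 6 libraries was most like those of Ppp1r14b, Spi1 and Tmem39b. The comparison covered 9235 tested genes with at least 10 CPM on average, leaving out genes with clone-like or predicted symbols. The measure was the root mean square of the difference in centred log2 CPM, which was 0.0518, 0.0554 and 0.063 for these genes. Their GC contents were 60.8%, 56.2% and 56.4%, beside 54.0% for Trp53. Among the 9 genes the closest pair was Mdm2 and Mdm4, with a difference of 0.195, and Eda2r was the farthest from all others, with 0.534 to its closest gene Ccng1.

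Genes of the wider p53 pathway were followed in 4 lists. The upstream regulators and cofactors had 28 genes tested, of which edgeR called 0 in either comparison. Their median log2 fold change was 0.02 over 6 libraries, with 17 positive and 11 negative values, and 0.01 over 4 libraries, with 15 positive and 13 negative. Trp53bp1, whose protein 53BP1 binds damaged chromatin, was measured at 71.9, 84.2 and 78.0 CPM in mutant replicates 1, 2 and 3, against 109, 105 and 96.8 CPM in wild-type replicates. Every mutant library was below every wild-type library, as for 3 of the 28 genes of this list and 5.93% of all genes tested. Yet its log2 fold change was -0.34 (SE 0.18) over 6 libraries and -0.43 (SE 0.09) over 4 libraries, with edgeR adjusted p = 1 and 0.0643. DESeq2 gave an adjusted p of 0.0242 over the 4 libraries, where adjusted p over the alternatives ran from 0.0149 to 0.356, and Tubgcp4 on the opposite strand overlaps 15% of the exons. Daxx, a histone chaperone that binds Mdm2, was measured at 54.3, 48.6 and 79.3 CPM in mutant replicates, against 55.1, 49.4 and 38.2 CPM in wild-type replicates, so replicate 3 alone set the genotypes apart. Its log2 fold change was 0.43 (SE 0.27) over 6 and 0.01 (SE 0.10) over 4 libraries, with edgeR adjusted p = 1 and 0.976. Cdkn2a, whose Arf product inhibits Mdm2, averaged 0.0301 CPM in mutant and 0.0158 CPM in wild-type libraries and was too low to test.

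Among 14 tested genes of growth arrest and quiescence, edgeR called 0 over 6 libraries and 2 over the 4 libraries. Both were lower in the mutant, where 0.645% of all genes were called lower. The median log2 fold change of the 14 genes was 0.05 over 6 libraries, with 8 positive and 6 negative values. Over 4 libraries it was -0.16, with 6 positive and 8 negative. Over 6 libraries, groups did not overlap for 1 gene higher and 1 lower in the mutant, beside 1.91% and 5.93% of all genes. Cdkn1a encodes p21, the cyclin-dependent kinase inhibitor that carries out much of the arrest by p53. It was measured at 20.2, 22.6 and 29.0 CPM in mutant replicates 1, 2 and 3, against 50.6, 59.8 and 35.4 CPM in wild-type replicates. All mutant libraries were below all wild-type libraries, with the smallest gap in replicate 3. Over 6 libraries Cdkn1a had a log2 fold change of -0.95 (SE 0.28), with an edgeR adjusted p = 1. Over the 4 libraries it was -1.34 (SE 0.12) with an edgeR adjusted p = 0.00128. Without wild-type replicate 2 it was -1.20, which set mutant females at 32 weeks against 1 wild-type female at 54 weeks. Without wild-type replicate 1 it was -1.46, which set mutant females against 1 wild-type male, all at 32 weeks. Each of these fits rests on 1 wild-type library, and genotype cannot be told apart from age in the first or sex in the second. The log2 difference of mutant minus wild-type replicate 3 was -0.14 after the TMM scaling used in edgeR's test, which the CPM above do not have. An unnamed transcript on the opposite strand (AC167363.2) overlaps 7.68% of the exons of Cdkn1a.

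Plk2 encodes a polo-like kinase that p53 induces on stress. It was measured at 18.5, 20.9 and 14.0 CPM in mutant replicates 1, 2 and 3, against 48.8, 43.9 and 18.2 CPM in wild-type replicates. Wild-type replicate 3 fell among the mutant libraries, so the groups overlapped. Plk2 had a log2 fold change of -0.99 (SE 0.38) over 6 libraries, with an edgeR adjusted p = 1, and -1.21 (SE 0.11) over 4 libraries, with an edgeR adjusted p = 0.00138. In replicate 3 the log2 difference of mutant minus wild type was -0.23, again after TMM scaling. Over the 4 libraries, both calls held with library totals, DESeq2, a replicate block and a GC term. Adjusted p in these edgeR and DESeq2 tests was at most 0.00158 for Cdkn1a and 0.00279 for Plk2. The remaining alternatives leave 1 library of a genotype, with log2 fold changes of -1.46 to -1.20 for Cdkn1a and -1.27 to -1.14 for Plk2. Sex and age were in none of these models. Over 6 libraries, 15 of 16 alternatives gave no call for either gene, the exception being the fit without both libraries numbered 3.

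**Figure D4:**
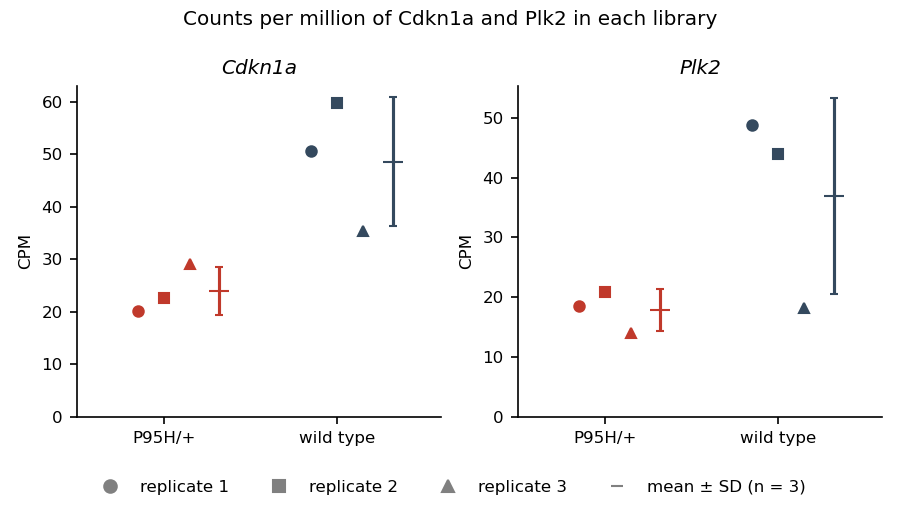
Levels of Cdkn1a and Plk2 in CPM in each of the 6 libraries, P95H/+ left of wild type, with a point shape for each replicate and bars for the mean ± SD (n = 3). Mutant replicates 1 and 2 are at 18.5 to 22.6 CPM for both genes, against 43.9 to 59.8 CPM in wild-type replicates 1 and 2, while the libraries numbered 3 lie closer together.

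The 16 tested cell death targets had 0 calls in either comparison, with median log2 fold changes of 0.01 over 6 and 0.06 over 4 libraries. Pmaip1, which encodes the death-promoting BH3 protein Noxa, was measured at 29.5, 38.2 and 11.7 CPM in mutant replicates, against 55.6, 44.1 and 23.3 CPM in wild-type replicates. The groups overlapped over 6 libraries, though each mutant library was below the wild-type library of its number. The log2 fold change of -0.53 (SE 0.14) over 4 libraries had an edgeR adjusted p = 0.145, beside -0.57 (SE 0.47) over 6 libraries with an adjusted p = 1. Steap3, an iron reductase used by red cell precursors, was measured at 76.1, 64.2 and 178 CPM in mutant replicates, against 50.6, 57.1 and 126 CPM in wild-type replicates. Its libraries numbered 3 were the highest of both genotypes, and the log2 fold change of 0.41 (SE 0.12) over 4 libraries had an edgeR adjusted p = 0.145, beside 0.54 (SE 0.50) over 6 libraries with an adjusted p = 1. Both genes passed the test in some of the alternatives that left out a further library.

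The 19 tested targets of DNA repair and metabolism also had 0 calls in either comparison, with medians of -0.02 over 6 and -0.10 over 4 libraries. Ephx1, an epoxide hydrolase, was measured at 1.15, 1.24 and 1.12 CPM in mutant replicates, against 2.35, 1.52 and 1.66 CPM in wild-type replicates. These values rest on 25, 28 and 12 counts in mutant replicates, against 54, 32 and 28 counts in wild-type replicates. Ak1, an adenylate kinase, was measured at 2.68, 2.96 and 3.81 CPM in mutant replicates, against 4.39, 4.36 and 5.70 CPM in wild-type replicates. For both genes every mutant library was below every wild-type library, as for 4 of the 19 genes of this list and 5.93% of all genes tested. The log2 fold change of Ephx1 was -0.58 (SE 0.28) over 6 and -0.66 (SE 0.31) over 4 libraries, with edgeR adjusted p = 1 and 0.347. That of Ak1 was -0.54 (SE 0.27) over 6 and -0.60 (SE 0.22) over 4 libraries, with edgeR adjusted p = 1 and 0.236.

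**Figure D5:**
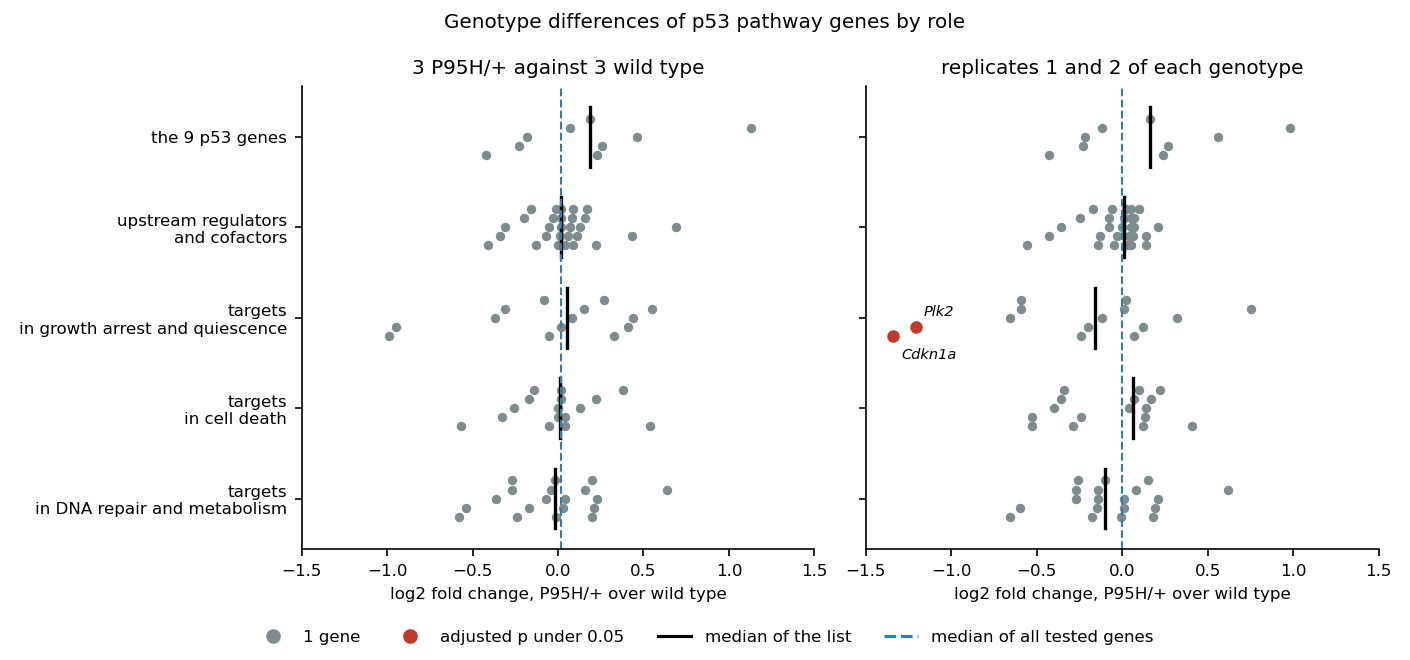
Log2 fold change, mutant over wild type, of every tested gene of the 9 and of the 4 pathway lists, over all 6 libraries (left) and the 4 libraries numbered 1 and 2 (right). Points are genes, black bars list medians and the dashed line the median of all genes, and Cdkn1a at -1.34 and Plk2 at -1.21 in the right panel are the points past the threshold.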

How the data were processed

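Gene expression was measured by RNA sequencing of 6 libraries, made per the labels' protocols from ribosome-depleted total RNA with a stranded kit. The authors deposited raw counts and CPM for 26027 genes, and a table of 15466 genes that passed their filter. The submitters' processing notes name STAR 2.5.3a, Subread 1.5.1 with featureCounts, edgeR, limma and the mm10 build, with settings and strand mode not given in the sources used here. The deposited CPM equalled the count over the library total within 0.0005, so CPM of all genes was computed that way.

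Genotypes were compared on the counts with edgeR 4.0.16 (TMM scaling, filterByExpr, quasi-likelihood F test, Benjamini-Hochberg adjustment over all genes tested, threshold 0.05) in R 4.3.3. Log2 differences in the replicate 3, GC and pattern comparisons used TMM-scaled CPM, while printed CPM used library totals alone. Count ratios used raw counts. Each SE was computed as the absolute log2 fold change over the square root of the test's F statistic, rather than taken from edgeR. DESeq2 1.42.0 and limma-voom 3.58.1, library totals, no filter, a GC term, sex, a replicate block and leaving out libraries were alternatives. Same-numbered libraries deviated together (r = 0.372, 0.348 and 0.613), which meets the 0.1 set for pairing, but differently numbered libraries did so as strongly (0.463 for mutant 2 with wild-type 1 and 0.386 for mutant 1 with wild-type 2), so the correlations set replicate 3 apart from the others. The numbers come from the labels. GC content, exon lengths, positions and overlaps came from GENCODE M21. The genes, lists and tests were chosen with earlier results of these data known. Of the lists, genes were named where edgeR called them (at most 6 a list) and, in any case, the 2 with the smallest p over 6 libraries. Cop1, Trp63 and Sco2 were not matched by symbol, and Cdkn2a, Trp73 and Rprm were too low to test. Summed plasma cell markers were 198 to 247 CPM in mutant and 203 to 218 CPM in wild-type libraries, and stromal and endothelial markers 122 to 155 CPM in mutant and 103 to 152 CPM in wild-type libraries. Xbp1 alone was at 151 to 185 CPM and Pecam1 at 101 to 146 CPM, so these sums say little about the other markers. Col1a2 was at 5.54, 9.33 and 7.35 CPM in mutant replicates, against 3.69, 1.80 and 0.891 CPM in wild-type replicates. Groups were split with higher mutant values in 1.91% of all genes tested, and every other marker of these 2 lists overlapped.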

Additional observations from a re-analysis of the deposited data

Results flagged for a closer look

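In 2 of the 9 genes the genotypes lay in opposite orders in the 2 sexes, as in 26.8% of the 17144 genes tested, and neither difference passed the test. In females, mutant replicates 1 and 2 (32 weeks) were set against wild-type replicate 1 (54 weeks), and in males, mutant replicate 3 against wild-type replicates 2 and 3. Ccng1 was higher in both mutant females, at 107 and 100 CPM against 90.7 CPM in the wild-type female, and lower in the mutant male, at 47.3 CPM against 85.7 and 56.8 CPM in wild-type males. The genotype effect in males minus that in females was -0.74 on the log2 scale, with an adjusted p = 0.721 in edgeR's interaction test.

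Sesn2 was lower in both mutant females, at 11.7 and 10.2 CPM against 13.2 CPM in the wild-type female, and higher in the mutant male, at 27.6 CPM against 13.1 and 18.6 CPM in wild-type males. The genotype effect in males minus that in females was 1.13 on the log2 scale, with an adjusted p = 0.677 in edgeR's interaction test. The mutant male library is also replicate 3, whose GC trend is given above, so sex and library cannot be told apart.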

How the results depend on the processing

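Over 6 libraries, edgeR called 0 genes, against 8 with DESeq2, 1 with a replicate block, 1 with a replicate block and GC term, 144 without both libraries numbered 3, and 0 to 1 when single libraries were left out (1 without wild-type replicate 3). Over the 4 libraries it called 144, against 299 with DESeq2 and 99 to 830 when single libraries were left out (531 without wild-type replicate 1, 830 without wild-type replicate 2, 474 without mutant replicate 2 and 99 without mutant replicate 1), which leaves 1 library of a genotype that is assumed to vary like the other group. The replicate block over the 4 libraries called 124. Calls in the growth arrest list were 0 over 6 libraries and 2 without both libraries numbered 3. No call among the 9 genes changed under the block. Directions held for 6 of 9 genes in all 16 alternatives over 6 libraries and for 8 of 9 in all 8 over 4 libraries. The log2 fold change of Ccng1 turned to -0.11 with sex in the model and ranged from -0.02 to 0.47 when single libraries were left out. That of Phlda3 was -0.01 by library totals and -0.32 to 0.43 with single libraries left out (-0.34 to 1.18 over 4 libraries). Sesn2 was at -0.23 without both libraries numbered 3 and -0.40 to 0.50 with single libraries left out. Daxx over 4 libraries was at -0.02 by library totals and -0.09 to 0.11 with single libraries left out, and Steap3 over 6 libraries ranged from -0.09 to 1.05. Over 4 libraries, Pmaip1 (-0.67 and -0.70) and Steap3 (0.52 and 0.55) passed the test without wild-type replicate 2 or mutant replicate 2, and Trp53bp1 also without wild-type replicate 1 (-0.41). The cause of these changes was not tested. Counts of 7 to 54 limit the precision of Eda2r, Phlda3 and Ephx1, and 2 or 3 libraries a genotype limit all tests.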
